A study of Arabidopsis thaliana with 31 samples.

Results

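Plant cells enlarge only where their wall yields, and 2 families of secreted proteins loosen it. The genes described here were 19 alpha-expansins (EXPA) and 23 xyloglucan endotransglucosylase/hydrolases (XTH), 42 of the 32678 loci in the expression table, chosen by locus identifier as members of the 2 families. Of the 42 genes, 13 EXPA and 15 XTH genes, 28 in all, had a value above 0 in 1 or more of the 31 libraries. The share was 53.6% over all loci.

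Expansins act at acid pH and let cellulose microfibrils slide apart without cutting them. XTH enzymes cut xyloglucan, the chain that tethers microfibrils, and join the cut end to another chain or to water. In the root, cells leave the meristem and elongate as their walls yield, while the quiescent center (QC), a small group of rarely dividing cells that the stem cells surround, does not. The stele is the inner cylinder that holds the vascular tissue and the pericycle.

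Single cells of Col-0 *Arabidopsis* roots were collected with a glass pipette after the wall had been digested with enzymes, which every library shares, and their polyA RNA was amplified and sequenced. The QC cells carried *WOX5:GFP* and came from plants labelled 6 days after stratification, although the study's methods give an earlier harvest. There were 20 single QC cells and 4 aliquots, which were made by pooling 4 QC cells and splitting the lysate. The 7 stele cells carried *WOL:CRE-GR 35S:lox-CFP*, a mark that dexamethasone switches on and that the daughters of a marked cell keep, and came from plants labelled 7 days after stratification. The root tip with its stem cell niche was cut off, and 3 stele cells were taken at 0 h and 4 at 16 h after the cut. QC and stele cells therefore differed in cell type, reporter line, age, dexamethasone and the cut, and these cannot be told apart. No label or method names the plant of a cell. The study's methods describe roots from a single plate and QC cells taken in 4 batches, which no label assigns to libraries. Each group was therefore treated as 1 sample and differences were not tested. Values are given per cell with medians and ranges, in FPM (the paper's term for a library's reads per 1000000).

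Libraries held 11637897 to 127775758 reads, and 1 read stood for 0.00783 to 0.0859 FPM. The genes listed above 0 were nested. All genes of QC cells 8 to 13 were among those of QC cell 1, those of QC cells 3 to 7 among those of QC cell 2, and those of QC cells 19 and 20 among those of QC cell 14. Each of the other groups (aliquots, stele at 0 h, stele at 16 h) was 1 such set, with replicate 1 at its head. A gene at 0 in the first library of a set was thus at 0 in the whole set, and zeros within a set are not independent. Since each stele time was 1 set, time and set cannot be told apart where a result rests on zeros. There were also 2 nearly alike pairs, QC cells 15 with 16 and 17 with 18, whose reads differed by a median chi-square over genes of 2.38 and 2.41. They were kept as separate cells.

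The labels were checked against markers. The 4 QC markers *WOX5*, *SCR*, *PLT1* and *PLT2* summed to 395 to 4811 FPM in QC cells, 1886 to 3466 in aliquots and at most 8.76 in stele cells. The 3 stele markers *WOL*, *SHR* and *TMO5* summed to at most 0.0644 FPM in QC cells, 0.0239 in aliquots and 65.5 to 576 at 0 h. At 16 h their sum ran from 1.06 over a median of 1.91 to 195 FPM, and *SHR* was at 0 in all 4 cells. The highest sum was that of replicate 1, with *WOL* at 99.7 and *TMO5* at 95.0 FPM. *WOL* was at no more than 2.44 FPM in the other cells at 16 h. The 3 root cap markers and the 2 markers of endodermis and cortex were at 0 in all libraries. Among the 4 markers of epidermis and root hair, only *GL2* was above 0, at no more than 4.65 FPM.

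A median of 7 of the 42 genes (4 to 15) was above 0 in a QC cell, 18 in each aliquot, 20 (19 to 23) in a stele cell at 0 h and 20 (16 to 22) at 16 h. The share of all loci above 0 had medians of 17.9%, 30.3%, 36.6% and 38.8% in the same groups. The 14 genes at 0 in every library were *EXPA2*, *EXPA5*, *EXPA7*, *EXPA10*, *EXPA17*, *EXPA18*, *XTH12*, *XTH13*, *XTH14*, *XTH21*, *XTH24*, *XTH26*, *XTH31* and *XTH33*. *EXPA7* and *EXPA18* are known from root hair cells, and *EXPA17* from emerging lateral roots. The authors removed genes with low coverage, and values of 1 read were listed within sets, so a listed 0 is not shown to be absence.

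**Figure D1:**
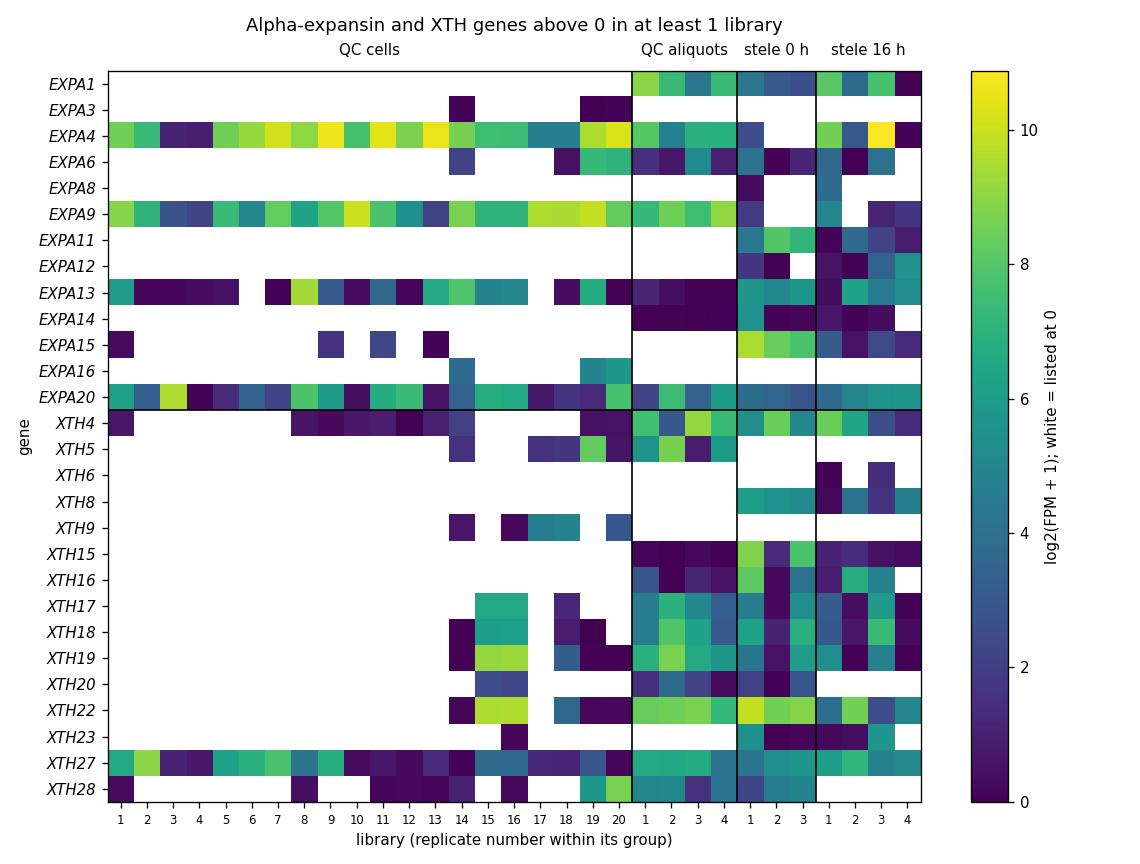
Level of the 28 genes above 0 in at least 1 library, with genes as rows, the 31 libraries as columns and color as log2(FPM + 1); white marks a listed 0. *EXPA4*, *EXPA9*, *EXPA20* and *XTH27* fill the row in all 20 QC cells, while *EXPA11* and *XTH8* fill it in the 7 stele cells alone.

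Among the 42 genes, alpha-expansins outweighed XTH genes in most QC cells. Their summed level was above that of the XTH genes in 17 of 20 QC cells and at least 10 times as high in 11, and levels per kb of transcript gave the same counts. The exceptions were QC cells 2, 15 and 16. Summed EXPA levels had a median of 877 FPM (4.91 to 1963) and summed XTH levels a median of 64.4 FPM (0.461 to 1538). *XTH30*, an XTH gene outside the 42, is not in these sums. It was above 0 in 13 QC cells, with a median of 0.743 FPM over all 20. Its values reached 1438 FPM in QC cell 8, 352 in QC cell 2 and 189 in QC cell 1, so the counts hold for the 42 genes alone. QC cell 4 stood apart, with 5.58 FPM over all 42 genes, although its depth of 26705734 reads was above that of the median QC cell. In this cell *XTH30* alone was at 1093 FPM, above the EXPA sum of 4.91.

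The leading gene of a QC cell was *EXPA4* (AT2G39700) in 8 cells and *EXPA9* (AT5G02260) in 7, by FPM and by FPM per kb alike. *EXPA4*, which has 3 exons at chr2:16543832-16545746 of TAIR10.1, ran from 0.861 over a median of 388 to 1560 FPM in the QC cells and was at 0 in none. It reached 10 FPM in 18 cells and was low in QC cells 3 and 4, which share a set. *EXPA9*, with 3 exons at chr5:463073-465273, ran from 3.45 over a median of 191 to 1020 FPM and reached 10 FPM in 17 cells. Both genes led the order per length, with medians of 259 and 140 FPM per kb of transcript, and their ranges overlapped throughout.

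2 other expansins varied more widely. *EXPA20* was above 0 in all 20 QC cells but ran from 0.0749 over a median of 9.73 to 768 FPM, with the highest value in QC cell 3, where *EXPA4* was at 1.14. *EXPA13* was above 0 in 18 cells, with a median of 0.352 and a highest value of 664 FPM in QC cell 8. It reached 10 FPM in 8 cells, which came from several sets. Nearly alike QC cells 15 and 16 gave 28.4 and 31.6 FPM of *EXPA13* and 107 and 98.9 of *EXPA20*.

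Among QC cells, 2 expansins were mostly confined to the set of QC cells 14, 19 and 20. *EXPA16* was at 12.8, 29.2 and 54.1 FPM in these cells and at 0 in the other 28 libraries. *EXPA6* was at 3.74, 156 and 132 FPM there, at 0.386 in QC cell 18, and at 0 in the other 16 QC cells. Outside the QC cells, *EXPA6* was at 0.633 to 35.1 FPM in the aliquots and 0.0711 to 16.4 in stele cells at 0 h. At 16 h it was above 0 in 3 stele cells, at no more than 16.2 FPM. QC cells 14, 19 and 20 had 93606126 to 115114702 reads and held 9474 to 11035 loci above 0, against a median of 5858 over all QC cells. *EXPA3* was above 0 in the same 3 cells, at no more than 0.0748 FPM. Whether depth or the set bears on these values was not tested.

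Among the XTH genes, *XTH27* alone was above 0 in all 20 QC cells. It ran from 0.0869 over a median of 3.85 to 500 FPM, the highest value being that of QC cell 2, and reached 10 FPM in 9 cells. Within 1 set, QC cells 2, 5, 6 and 7 had 500, 75.8, 124 and 218 FPM, and QC cells 3 and 4 had 1.06 and 0.674. *XTH28* reached 412 FPM in QC cell 20 and 55.4 in QC cell 19 and was below 1 FPM in the other 18. *XTH5*, at 308 FPM in QC cell 19, was at no more than 2.34 in any other QC cell. *XTH9* was above 0 in 5 QC cells, with 23.4 and 27.3 FPM in QC cells 17 and 18, and in no other library. *XTH4* was above 0 in 10 QC cells, in none above 3.39 FPM.

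**Figure D2:**
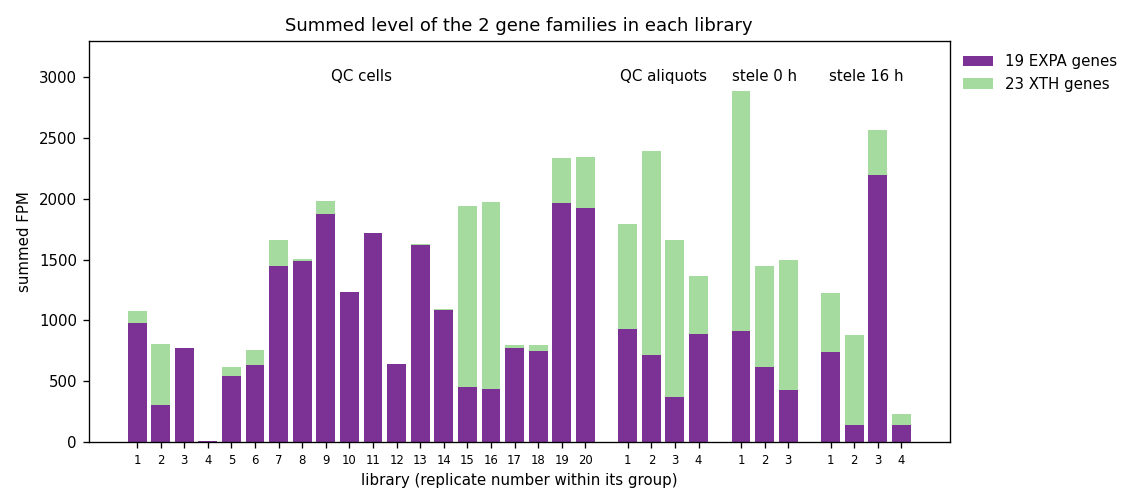
Summed FPM of the 19 EXPA genes (purple) and the 23 XTH genes (green, stacked on top) in each library, grouped by cell type and time. Expansins make up most of the bar in 17 of 20 QC cells, XTH genes in QC cells 2, 15 and 16 and in all 3 stele cells at 0 h.

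QC cells 15 and 16 were the only QC cells with more than 20 FPM of *XTH19* or *XTH22*. *XTH22* (*TCH4*), a touch-induced enzyme with 2 exons at chr5:23307006-23308680, was at 741 and 758 FPM in these cells. It was at 11.8 FPM in QC cell 18, at most 0.214 in QC cells 14, 19 and 20, and at 0 in QC cells 1 to 13 and 17. *XTH19* had 567 and 600 FPM in QC cells 15 and 16, 8.22 in QC cell 18, and less than 0.1 in the rest. QC cells 17 and 18 were otherwise nearly alike, yet both genes were at 0 in QC cell 17. In QC cell 18 they had 1.37% (*XTH19*) and 1.56% (*XTH22*) of their level in QC cell 16. Over the 418 loci at 0 in QC cell 17 with at least 100 FPM in QC cell 16, QC cell 18 had a median of 1.61% of the level in QC cell 16 (quartiles 1.50% and 1.77%). Of these loci, 416 were above 0 in QC cell 18.

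The aliquots, although made from QC cells, held 4 genes, of their 18 above 0, that no QC cell had above 0, while 8.38% of all loci above 0 in an aliquot were at 0 in every QC cell. These were *EXPA1*, *EXPA14*, *XTH15* and *XTH16*, and the 4 cells pooled were not among the 20. *EXPA1*, an expansin known from the pericycle in lateral root formation, had 504, 159, 18.8 and 169 FPM in the aliquots. All 20 QC cells were at 0, including QC cells 1, 2 and 14 to 18, whose gene lists bound those of the others, so the groups did not overlap. *EXPA14* and *XTH15* were at no more than 0.188 FPM in the aliquots, and *XTH16* at 0.0717 to 6.40.

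*XTH22* was at 327, 353, 410 and 150 FPM in the aliquots, and *XTH4* varied more, at 191, 7.07, 572 and 162 FPM. Only QC cells 15 and 16 were above the aliquots for *XTH22*, and all 20 QC cells were below them for *XTH4*. *EXPA9* was at 157, 353, 181 and 541 FPM, *EXPA4* at 260, 26.5, 123 and 119, and both lay within the range of the QC cells. Summed levels in the aliquots were 928, 713, 367 and 889 FPM for EXPA and 863, 1676, 1295 and 475 for XTH. A list of 6 stress and touch genes, among them *WRKY40* and *CML12*, summed to 5851 to 7782 FPM in the aliquots and to 7731 in QC cell 15 and 7713 in QC cell 16, with a median of 2245 over QC cells. It summed to 7284 FPM in QC cell 13, where *XTH22* was at 0, and to 743 to 2347 in stele cells at 0 h. Its part in the *XTH22* levels was not tested.

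The 14 genes above 0 in both a QC cell and an aliquot were compared for spread. The SD of the deposited log2 values was larger over QC cells than over aliquots for 11 of the 14, against 69.8% of all loci above 0 in both. For *EXPA9* the SDs were 2.58 over the 20 cells and 0.82 over the 4 aliquots, and for *XTH22* they were 4.58 and 0.66. *XTH4*, *XTH5* and *XTH20* had the larger SD in the aliquots, at 2.72, 3.70 and 2.30. The CV of FPM values was larger over QC cells for 14 of the 14 genes, against 97.1% of all loci. Aliquots were deeper than most cells, and they came from 1 pool.

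*XTH17*, *XTH18*, *XTH19* and *XTH20*, a group of close paralogs expressed in roots, had to be read together. Their coding sequences were 83.9% to 92.2% identical. Reads were 50 bases long and were aligned in part if needed, so windows of that length were compared with all transcripts. The share of windows with at least 26 bases in common with another transcript ran from 16.4% in *XTH20* and 20.5% in *XTH19* to 44.9% in *XTH17*. No other gene given here by its values in every stele cell was above 6.14%. Only unbroken runs of 26 bases were counted, so stretches with scattered differences were missed and these shares are lower limits. Reads that fitted several places were divided among them by the authors, and the split between these 4 genes is therefore uncertain, their sum less so. Windows identical to another transcript over all 50 bases made up 0% in *XTH20* to 1.63% in *XTH19*. The 50-base window within the coding exons in which the 4 differ least was picked, so other windows differ as much or more. It is shown from the TAIR10.1 assembly of RefSeq at chr1:24257727-24257776 (*XTH17*, plus strand), chr4:14826501-14826550 (*XTH18*, minus strand), chr4:14829493-14829542 (*XTH19*, minus strand) and chr5:19482610-19482659 (*XTH20*, plus strand). Capitals mark the 2 positions at which the 4 sequences are not all alike.
XTH17: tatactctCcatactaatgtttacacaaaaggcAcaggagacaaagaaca
XTH18: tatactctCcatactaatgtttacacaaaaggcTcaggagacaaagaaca
XTH19: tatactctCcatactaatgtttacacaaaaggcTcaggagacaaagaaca
XTH20: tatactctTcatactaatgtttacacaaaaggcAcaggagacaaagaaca

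The balance of *XTH18* and *XTH19*, alike in that window, differed between libraries. In FPM, with transcripts of 1263 and 1335 bases, *XTH18* was 0.118 times *XTH19* in QC cell 15, 0.117 times in QC cell 16 and 0.102 times in QC cell 18. In the aliquots the ratio was 0.200, 0.585, 0.811 and 0.152. At 0 h it was 4.44, 2.46 and 1.85, so that *XTH18* had the higher FPM in all 3 stele cells and the lower in all 4 aliquots. At 16 h the ratio was 0.173, 11, 6.44 and 6, with only 0.995 and 0.342 FPM over the 4 paralogs in replicates 2 and 4. Their summed level was 732 and 767 FPM in QC cells 15 and 16, 69.1 to 796 in the aliquots, 123, 1.88 and 221 at 0 h, and 55.2 and 253 in replicates 1 and 3 at 16 h.

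**Figure D3:**
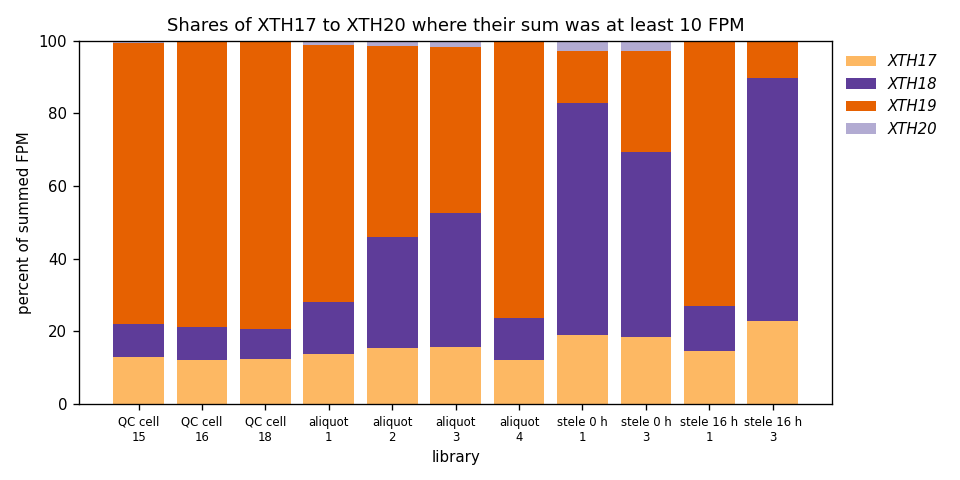
Shares of *XTH17* to *XTH20* in percent of their summed FPM, for the 11 libraries in which that sum was at least 10 FPM. *XTH19* makes up 77.4% to 79.5% in the 3 QC cells, which are not independent (15 and 16 were nearly alike, and 18 had 1.37% of the *XTH19* level in 16), and 14.4% and 27.6% in the 2 stele cells at 0 h.

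Stele cells at 0 h had wall loosening genes that were low or at 0 in QC cells. A gene was called higher where every library of one group was above every library of the other and the medians of the deposited log2 values differed by at least 1. Of the 27 genes above 0 in a library compared, 8 were higher in stele cells at 0 h (*EXPA1*, *EXPA11*, *EXPA14*, *EXPA15*, *XTH4*, *XTH8*, *XTH15* and *XTH16*), while 14.5% of all loci were called higher by the same rule. Only *EXPA9* was lower, while 0.166% of all loci were. The median log2 difference was 6.56 over the 27 genes and 4.53 over all loci tested. Each gene called higher was at 0 in all QC cells or at no more than 4.16 FPM in any, so the folds are not given. Where one median is 0, a log2 difference is the other median on the deposited scale and is not a fold. In QC cell 1, 1 read was worth 1.32 on that scale before adding 1, against 0.0487 FPM. Differences from 0 are therefore larger than under log2 of FPM plus 1.

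*EXPA15* (AT2G03090, 4 exons, chr2:916806-918671) was at 743, 327 and 216 FPM in the 3 stele cells at 0 h. In QC cells it was above 0 in 4 of 20, all in the set of QC cell 1, and at most at 4.16 FPM, and it was at 0 in the aliquots. The stele cells were far above every QC library. *EXPA11* (AT1G20190, 3 exons, chr1:6998335-6999839) was at 19.8, 239 and 140 FPM at 0 h and *XTH8* (AT1G11545, 4 exons, chr1:3878495-3880391) at 68.2, 44.0 and 36.2. Both were at 0 in all 24 QC libraries, and thus in each of the sets of QC cells. The log2 differences were 13.06 for *EXPA15*, 11.87 for *EXPA11* and 10.17 for *XTH8*. Under log2 of FPM plus 1 they were 8.36, 7.14 and 5.49.

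*XTH15* was at 441, 1.46 and 224 FPM at 0 h and *XTH16*, which shares 26-base stretches with it, at 291, 0.178 and 16.1. Replicate 2 was the low cell for both, and also for *XTH17* to *XTH20* and *EXPA14*. *EXPA14* was at 44.0 FPM in replicate 1 and at 0.0711 and 0.148 in the other cells, close to the step of 1 read, and *EXPA1* was at 18.7, 7.50 and 5.26. *XTH4* was at 41.6, 348 and 32.3 FPM, with replicate 2 the high cell. The log2 differences from QC cells were 12.55 for *XTH15*, 8.75 for *XTH16*, 2.30 for *EXPA14*, 7.62 for *EXPA1* and 9.69 for *XTH4*. Under log2 of FPM plus 1 they were 7.82, 4.10, 0.199, 3.09 and 5.39 in the same order. *EXPA1*, *EXPA14*, *XTH4*, *XTH15* and *XTH16* were also above 0 in every aliquot. Against the aliquots, *XTH15* was higher in all 3 stele cells at 0 h, and *EXPA14*, *XTH4* and *XTH16* overlapped. *EXPA1* was lower in FPM in all 3, but replicate 1 and aliquot 3 were close, at 18.7 and 18.8. In the deposited log2 values these 2 libraries were at 8.99 and 8.94, so *EXPA1* overlapped as well.

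*EXPA9* was the one gene called lower, at 2.58, 0 and 0 FPM at 0 h against at least 3.45 in every QC cell. *EXPA4* was at 4.90, 0 and 0 FPM and overlapped the QC cells, since QC cells 3 and 4 were at 1.14 and 0.861. Without replicate 1 at 0 h, *EXPA4* was called lower as well. The log2 differences were -12.10 for *EXPA9* and -13.31 for *EXPA4*. For *EXPA9* it was -7.57 under log2 of FPM plus 1.

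*XTH22* led the 42 genes in all 3 stele cells at 0 h, at 944, 373 and 460 FPM. It overlapped the QC cells through QC cells 15 and 16 and was not called. Per length the highest medians at 0 h were those of *XTH22*, *EXPA15*, *XTH15* and *EXPA11*, at 289, 228, 186 and 107 FPM per kb, and their ranges overlapped. XTH genes outweighed expansins in each cell, with sums of 1974, 832 and 1069 FPM against 916, 618 and 423. *EXPA13* (50.6, 32.7 and 53.9 FPM), *EXPA20* (13.4, 10.6 and 6.05) and *XTH27* (17.2, 39.6 and 48.7) lay within the range of the QC cells.

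**Figure D4:**
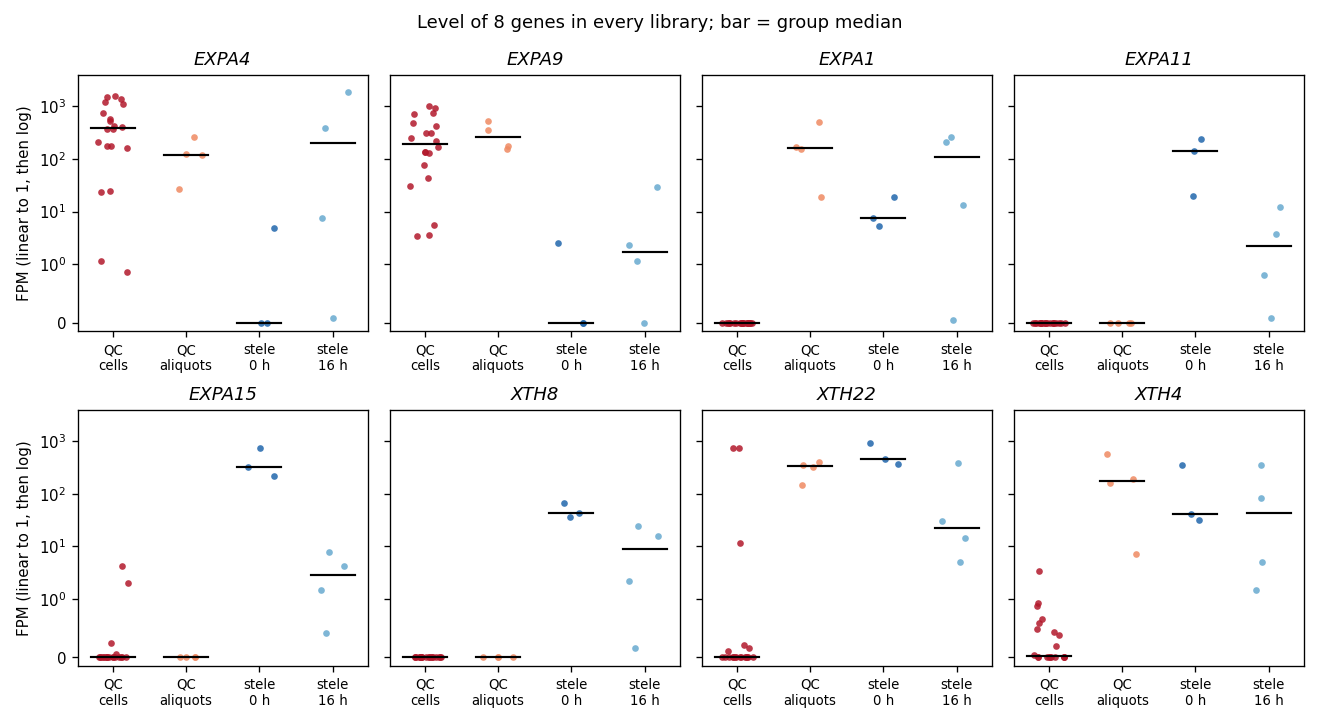
FPM of 8 genes in every library on an axis that is linear up to 1 and logarithmic above; points are libraries and black bars group medians. *EXPA11*, *EXPA15* and *XTH8* are high in the 3 stele cells at 0 h and lower in all 4 cells at 16 h, while *EXPA4* and *EXPA9* are high in most QC cells.

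At 16 h after the cut, 5 of the 24 genes above 0 in a stele cell were called lower than at 0 h (*EXPA11*, *EXPA15*, *XTH8*, *XTH20* and *XTH28*), while 12.3% of all loci were. By the same rule 0 of the 24 were higher, while 9.92% of all loci were. No test was made, so no p-value stands beside this count of 0. The median log2 difference was -0.96 over the 24 genes and 0 over all loci tested.

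*EXPA15* was at 7.70, 0.426, 4.32 and 1.50 FPM at 16 h, all below its lowest value of 216 at 0 h, and its log2 value fell by 6.99. *EXPA11* was at 0.0837, 12.5, 3.70 and 0.812 FPM, below the lowest value of 19.8 at 0 h, and fell by 6.33. *XTH8* was at 0.167, 15.9, 2.20 and 24.8 FPM, below the lowest value of 36.2 at 0 h, and fell by 2.88. The ratio of the 0 h median to the 16 h median was 112 for *EXPA15*, 62.1 for *EXPA11* and 4.86 for *XTH8*. All 3 genes were above 0 in each cell at both times, so these calls rest on no zeros. In replicate 1 at 16 h, however, *EXPA11* had 2 reads, the lowest value listed above 0 in that library, and *XTH8* had 4.

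*XTH28*, at 3.87, 23.6 and 29.4 FPM at 0 h, was at 0 in all 4 cells at 16 h, and its log2 value fell by 9.27. *XTH20*, at 3.44, 0.0711 and 6.59 FPM at 0 h, was likewise at 0 at 16 h and fell by 6.56. Under log2 of FPM plus 1 the differences were -4.62 for *XTH28* and -2.15 for *XTH20*. Replicate 1 at 16 h lacked both, and its list bounds those of the other 3 cells, so these are zeros of 1 list rather than of 4 cells. *XTH20* also shared reads with its paralogs.

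Other genes moved in some cells and not in others. *XTH22*, at 373 FPM or more at 0 h, was at 14.4, 388, 5.02 and 30.7 FPM at 16 h, so that replicate 2 overlapped the 0 h cells. *XTH15*, at 1.09, 1.59, 0.403 and 0.257 FPM at 16 h, overlapped only through replicate 2 at 0 h. *XTH16* ranged from 0 to 109 FPM at 16 h, in the order 0.754, 109, 25.4 and 0 by replicate. Without replicate 2 of either time, *XTH15* and *XTH22* were both called lower.

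*EXPA4* and *EXPA1* were high in 2 of the 4 cells at 16 h. *EXPA4* had 394, 7.45, 1881 and 0.0855 FPM, and the value of replicate 3 was above all other libraries. *EXPA1* had 267, 13.2, 208 and 0.0428 FPM, with replicates 1 and 3 above all 0 h cells and replicate 4 below them. Without replicate 4 at 16 h, *EXPA4* was called higher. *EXPA20* was at 12.6, 29.7, 47.5 and 50.1 FPM, and only replicate 1 overlapped the 0 h range of 6.05 to 13.4, so that *EXPA20* was called higher without it. *EXPA12* was at 0.502, 0.0568, 10.4 and 46.6 FPM, against 2.32, 0.0356 and 0 at 0 h. Without replicate 1 at 0 h, *EXPA4*, *EXPA12* and *EXPA20* were called higher at 16 h.

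*XTH27* (67.9, 141, 27.1 and 34.2 FPM) and *EXPA13* (0.293, 79.4, 22.3 and 38.2) overlapped their 0 h ranges, and *XTH4* (348, 82.8, 5.17 and 1.45) did so in 2 of 4 cells. Summed EXPA levels at 16 h were 737, 143, 2195 and 140 FPM, and summed XTH levels 487, 740, 371 and 91.8. The EXPA sums overlapped those at 0 h, and the XTH sums were below the lowest at 0 h, 832 FPM, in all 4 cells.

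The 250 bases upstream of the annotated start of *EXPA11*, *EXPA15* and *XTH8*, which were lower at 16 h in every cell, are shown from the RefSeq TAIR10.1 assembly, as read on the strand of the gene. They lie at chr1:6999840-7000089, chr2:918672-918921 and chr1:3880392-3880641, all with the gene on the minus strand. Capitals mark TATAAA on either strand, which was found here as its reverse complement.
EXPA11: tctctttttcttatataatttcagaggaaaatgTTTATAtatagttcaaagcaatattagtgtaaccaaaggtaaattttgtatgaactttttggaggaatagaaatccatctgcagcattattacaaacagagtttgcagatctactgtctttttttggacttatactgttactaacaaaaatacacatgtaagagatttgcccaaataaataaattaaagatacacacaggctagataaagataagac
EXPA15: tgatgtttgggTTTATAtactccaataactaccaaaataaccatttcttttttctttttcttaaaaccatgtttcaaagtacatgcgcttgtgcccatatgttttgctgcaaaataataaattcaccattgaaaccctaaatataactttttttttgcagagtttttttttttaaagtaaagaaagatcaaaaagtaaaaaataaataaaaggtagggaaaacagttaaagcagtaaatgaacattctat
XTH8: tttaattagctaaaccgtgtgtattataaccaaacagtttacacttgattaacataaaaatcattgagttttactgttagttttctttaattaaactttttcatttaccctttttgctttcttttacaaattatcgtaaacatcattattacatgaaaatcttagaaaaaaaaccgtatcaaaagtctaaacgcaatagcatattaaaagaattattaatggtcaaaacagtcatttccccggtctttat
On both strands, TATAAA was in 24 of the 42 upstream windows and in 47.3% of 27444 windows of all genes. TGTCTC, the core of auxin response elements, was in 5 of 42 and in 10.9% of all, and CACGTG, the G-box, was in 0 of 42 and in 6.49% of all. None of the 3 windows shown held TGTCTC or CACGTG. These are matches of letters and say nothing about binding.

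Against QC cells, stele cells at 16 h had 5 of 28 genes called higher (*EXPA1*, *EXPA11*, *EXPA12*, *XTH8* and *XTH15*), while 10.4% of all loci were called higher, and 0 lower, while 0.0614% of all loci were. Here too a gene at 0 in any QC cell could not be called lower. This comparison of 16 h with QC cells shares the QC cells with that at 0 h and the 16 h cells with that between times. All 5 genes were at 0 in every QC cell. Each was low in at least 1 stele cell at 16 h, with lowest values of 0.0428 FPM for *EXPA1*, 0.0837 for *EXPA11*, 0.0568 for *EXPA12*, 0.167 for *XTH8* and 0.257 for *XTH15*. *EXPA9*, at 29.8, 0, 1.17 and 2.31 FPM, stayed below the QC cells in all but replicate 1, and was called lower without it. The median log2 difference was 4.12 over the 28 genes and 4.43 over all loci tested.

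Genes of the same pathway were counted from lists by the same rule, to be read against the shares of all loci, 14.5% higher at 0 h than in QC cells, 9.92% higher and 12.3% lower at 16 h than at 0 h. Among the 16 other EXPA and XTH genes in the table, 3 were above 0 in a stele or QC cell, and *XTH30* was lower at 16 h, at 6.44, 0.605 and 61.6 FPM at 0 h and at 0 in all 4 cells at 16 h. Of the 9 beta-expansins and expansin-like genes, *EXPB1* was, like *EXPA15*, higher at 0 h than in QC cells and lower at 16 h than at 0 h. It was at 0 in all QC libraries, at 306, 252 and 153 FPM at 0 h and at 0.879, 7.82, 1.50 and 12.4 FPM at 16 h. *EXPB3* was higher at 16 h than at 0 h, at 0 in all QC libraries and at 0 h and at 4.90, 41.1, 0.293 and 150 FPM at 16 h.

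Of the 13 genes of xyloglucan synthesis, 12 were above 0 in a stele cell, 5 were lower at 16 h and 0 higher, against 12.3% and 9.92% of all loci. *XXT1*, a xylosyltransferase of the backbone, was at 184, 124 and 168 FPM at 0 h and at 7.12, 104, 2.45 and 2.61 at 16 h, and fell by 5.28. The others were *XXT3*, *XXT5*, *CSLC6* and the galactosyltransferase *MUR3*, with log2 differences of -3.32, -2.26, -1.89 and -1.35. *CSLC4*, a glucan synthase of the backbone, was higher at 0 h than in QC cells, at 405, 254 and 270 FPM. The 3 genes that trim xyloglucan gave no call.

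Plasma membrane proton pumps acidify the wall, where expansins act. Of 11 pump genes, 8 were above 0 in a library of each comparison, and 2 of them (*AHA3* and *AHA11*) were higher at 0 h than in QC cells (14.5% of all loci), *AHA8* was higher (9.92%) and *AHA4* lower (12.3%) at 16 h than at 0 h. In the aliquots *AHA11* was at 69.0, 102, 9.82 and 46.7 FPM, which overlapped its 40.1 to 63.4 FPM at 0 h. *AHA4*, at 17.4, 7.04 and 17.5 FPM at 0 h, was at 0 in all 4 cells at 16 h, and *AHA8*, at 0 at 0 h, was at 8.63, 1.22, 14.1 and 0.128. *AHA1* and *AHA2*, the main pumps of plant cells, were not called. The summed level of all pumps was 545 to 839 FPM at 0 h and 544 to 2466 at 16 h. Of the 6 stress and touch genes, *CML12* was called higher in stele cells than in QC cells at both times, and 0 of 6 differed between 0 h and 16 h by the rule. In the aliquots, made from QC cells, *CML12* was at 615, 1091, 994 and 794 FPM. These values overlapped those of the stele cells, 10.4 to 1658 at 0 h and 6.97 to 687 at 16 h.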

How the data were processed

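Reads of 50 bases were aligned by the authors to TAIR10 with Bowtie2, divided where they fitted several places, and summed per gene over exons. Genes of low coverage were dropped, and the deposited log2 values were taken after scaling to depth and adding 1. Undoing the log2 and dividing by the smallest step between low values of a library gave whole reads, within 0.05 reads, for 100% of values under 1000 reads. That step was taken as 1 read and may stand for less. The reads summed to 11637897 to 127775758 per library, and FPM was computed from that total.

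Samples were grouped by their labels, with 20 QC cells, 4 aliquots, 3 stele cells at 0 h and 4 at 16 h. The study's methods name 4 batches of QC cells, and no label gives the batch of a library. No plant or culture is named for a cell, so no test was made and intervals were left out. A gene was called where the libraries of 2 groups did not overlap and the medians of the deposited log2 values differed by at least 1. All 32678 loci were processed, and loci above 0 in a library compared formed the background. Levels per kb used transcript lengths of TAIR10.1, which held all 42 loci, 4 of them under another symbol.

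The members and lists were chosen with earlier results of these data known. The rule gave in full the 21 genes with a median of at least 10 FPM in 1 group or called in 1 of the 3 contrasts, and of the other lists at most 5 called genes each. *EXPA3*, *EXPA6*, *EXPA16*, *XTH9* and other genes outside it were named after their values were seen. The alternatives were log2 of FPM plus a pseudocount of 1, a difference of at least 2, a mean of at least 10 FPM, other levels of detection, thinning to 11637897 reads (50 draws, seed 1), scaling by the median ratio, the CV of FPM values, and leaving out stele cells and aliquots one by one. Leaving out the first library of each set and counting nearly alike pairs once were added after seeing the data. Computations were tested on simulated data and ran under Python 3.11.15 (pandas 2.3.3, numpy 2.4.6, matplotlib 3.10.9), with MAFFT 7.526 for the coding alignments. The cells of an earlier study were not analysed here.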

Additional observations from a re-analysis of the deposited data

Results flagged for a closer look

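1 of the 40 sets of values over a group of 4 libraries held a library far from the others. The deposited log2 value of *XTH27* was 8.78 in aliquot 4 and 11.21, 11.33 and 11.37 in the other aliquots, in FPM 16.8 against 94.8, 90.2 and 102. The gap was 0.937 of the range, above Dixon's 95% critical value for 4 libraries. Chance gives about 1 such library in 20 groups.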

How the results depend on the processing

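All 101 alternatives for the 19 single values of genes called kept their direction, and 12 moved by more than the spread between libraries, all under log2 of FPM plus 1. With a mean of at least 10 FPM required over all libraries of the 2 groups together, the genes higher in stele cells at 0 h than in QC cells went from 8 to 5 (*EXPA1*, *EXPA14* and *XTH8* were lost), those lower at 16 h than at 0 h from 5 to 3 (*EXPA11*, *EXPA15* and *XTH8* remained), and those higher at 16 h than in QC cells from 5 to 1 (*EXPA1* remained). Against QC cells, most libraries in that mean are the 20 QC cells. *XTH8* was thus lost at 0 h although it was at 36.2 FPM or more in each stele cell. Under log2 of FPM plus 1, *EXPA14* was lost at 0 h and *XTH15* at 16 h, both against QC cells. With each stele cell left out in turn, genes lower at 0 h than in QC cells numbered 1 to 2, genes higher at 16 h than at 0 h 0 to 3, genes lower at 16 h 5 to 7, genes higher at 16 h than in QC cells 5 to 9, and genes lower 0 to 1. Leaving out replicate 4 at 16 h gave the 9, adding *EXPA14*, *XTH4*, *XTH16* and *XTH23*, and leaving out replicate 1 at 16 h gave the 1, *EXPA9*. Without the first library of each set, 2 genes were lower at 0 h than in QC cells, 3 were higher at 16 h than at 0 h, and 1 was lower at 16 h than in QC cells. The median number of genes per aliquot went from 18 to 13.5 at 1 FPM, 10.5 at 10 FPM and 16 after thinning, that per stele cell from 20 to 17 and 13 at 0 h and to 12.5 and 9.5 at 16 h. Median ratio scaling took the summed EXPA level from 801 to 399 in the aliquots and from 440 to 255 at 16 h (medians of FPM), and the summed XTH level from 1079 to 565 in the aliquots, from 1069 to 620 at 0 h and from 429 to 254 at 16 h. The cause was not tested. No paired analysis was possible because the results come from no test and the replicate numbers only name cells. Differences below the coverage limit of the table were not detectable at this depth.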
